A study of Schizosaccharomyces pombe with 4 samples.

Results

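The 7 genes described here act at the transition from G1 to S phase of fission yeast, Schizosaccharomyces pombe, and were examined for binding of 3 transcription factors by chromatin immunoprecipitation and sequencing (ChIP-seq). Binding was taken from the rows of the deposited peak lists whose centre lay from 1000 bp upstream to 250 bp downstream of the annotated 5′ end of cdc10, rep2, cdt1, dut1, mik1, rad21 or ssb1, out of 5113 nuclear protein-coding genes. The genes were selected on these same peak calls, having a Fkh2 peak in reach and a role in G1/S control, so their presence in the Fkh2 list is no finding. The groups were strain JLP1586 with the TAP tag at the C terminus of Fkh2, strain JLP1792 with the same tag on Sak1, strain JLP1670 with it on Sep1, whose culture received 1 mM bortezomib, a proteasome inhibitor, for 45 min, and the untagged strain F108. The TAP tag is retained on IgG beads, and the untagged chromatin was taken through the same beads. All 4 cultures were asynchronous and grown in YES medium, so each value is an average over the stages of the cell cycle. The labels name no drug for the other 3 strains. Each sample pooled 2 biological experiments, so every factor had 1 peak list, no replicate error could be computed and no test between factors was made.

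Entry into S phase in this yeast depends on MBF, a complex of Cdc10 with the DNA-binding proteins Res1 and Res2, which binds MCB elements in promoters of replication genes. Rep2 is a coactivator of that complex, and Nrm1 and Yox1 repress it. Fkh2 and Sep1 are forkhead proteins known for transcription of mitotic genes, and Sak1 belongs to the RFX family of DNA-binding proteins. Among the 7 genes, 2 encode parts of the MBF machinery (cdc10 and rep2) and 5 are MBF targets. Cdt1 licenses replication origins, Dut1 hydrolyses dUTP, Mik1 is an inhibitory kinase of Cdc2, Rad21 is the cleavable subunit of cohesin, and Ssb1 is the large subunit of the single-stranded DNA binding protein RPA.

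Fkh2 peaks reached 7 of the 7 genes, against 2.84% of all genes, and nothing is read from that count since it fixed the choice. Sak1 peaks reached 2 of them, rep2 and rad21, against 1.06% of all genes. Since the genes were chosen for a Fkh2 peak, the nearer comparison is with the Fkh2 list: 2 of the 6 Fkh2 peaks at these genes overlapped a Sak1 peak, against 36 of 152 in the whole list (23.7%), and no difference is read from 2 of 6. Sep1 peaks reached 0 of 7, against 0.176% of all genes, and with a share this low no absence is read from the 0. The Fkh2 list held 6 peaks for the 7 genes, because mik1 and ssb1 are divergent genes whose annotated 5′ ends lie at the same base and are reached by 1 peak. The Fkh2-alone genes were therefore cdc10, cdt1, dut1 and the mik1 and ssb1 pair, and the genes with both factors were rep2 and rad21.

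The sequences under these peaks are shown because the peaks differ in which recognition words they hold. Capitals mark the forkhead word GTAAACA, the MCB word ACGCGT and the RFX words GTTGCCA and GTTACCA, read on both strands, and every stretch runs 5′ to 3′ on the strand of the gene in assembly ASM294v3. For rep2 and rad21 the stretch covers the Sak1 peak and the part of the Fkh2 peak outside annotated UTRs (chromosome II, 1717356 to 1717590, plus strand, and chromosome III, 1342681 to 1342892, plus strand).
rep2: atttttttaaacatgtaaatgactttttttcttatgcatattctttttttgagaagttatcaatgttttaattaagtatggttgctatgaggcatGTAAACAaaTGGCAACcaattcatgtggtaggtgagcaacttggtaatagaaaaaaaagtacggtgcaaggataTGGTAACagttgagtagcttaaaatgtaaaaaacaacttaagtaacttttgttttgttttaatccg
rad21: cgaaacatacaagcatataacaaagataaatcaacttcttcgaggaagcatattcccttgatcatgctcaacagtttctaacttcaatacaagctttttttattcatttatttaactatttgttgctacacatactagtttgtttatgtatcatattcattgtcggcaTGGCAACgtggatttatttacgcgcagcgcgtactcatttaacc

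For cdt1 the part of the Fkh2 peak before the gene start is shown (chromosome II, 477238 to 477391, plus strand). For the others the words lie inside annotated UTRs and are shown with up to 11 flanking bases on each side. These are dut1 (chromosome I, 2679172 to 2679200, minus strand), cdc10 (chromosome II, 2764191 to 2764218, minus strand) and 3 places at mik1 and ssb1 on the mik1 strand (chromosome II, 221337 to 221364, 221372 to 221399 and 221422 to 221450, plus strand). The first of the 3 holds a pair of MCB words.
cdt1: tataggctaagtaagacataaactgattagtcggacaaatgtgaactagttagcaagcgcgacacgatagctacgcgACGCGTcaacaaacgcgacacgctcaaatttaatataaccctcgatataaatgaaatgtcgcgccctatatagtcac
dut1: cttgactaaatGTAAACAaacgcgacgcg
cdc10: aatttatttcgACGCGTcgcgttctata
mik1 and ssb1, first place: gaaaaacgcgaACGCGTcatgACGCGTc
mik1 and ssb1, second place: attttaatattACGCGTaactttaagat
mik1 and ssb1, last place: tcaacaatggtTGTTTACtttcaaagtta

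**Figure D1:**
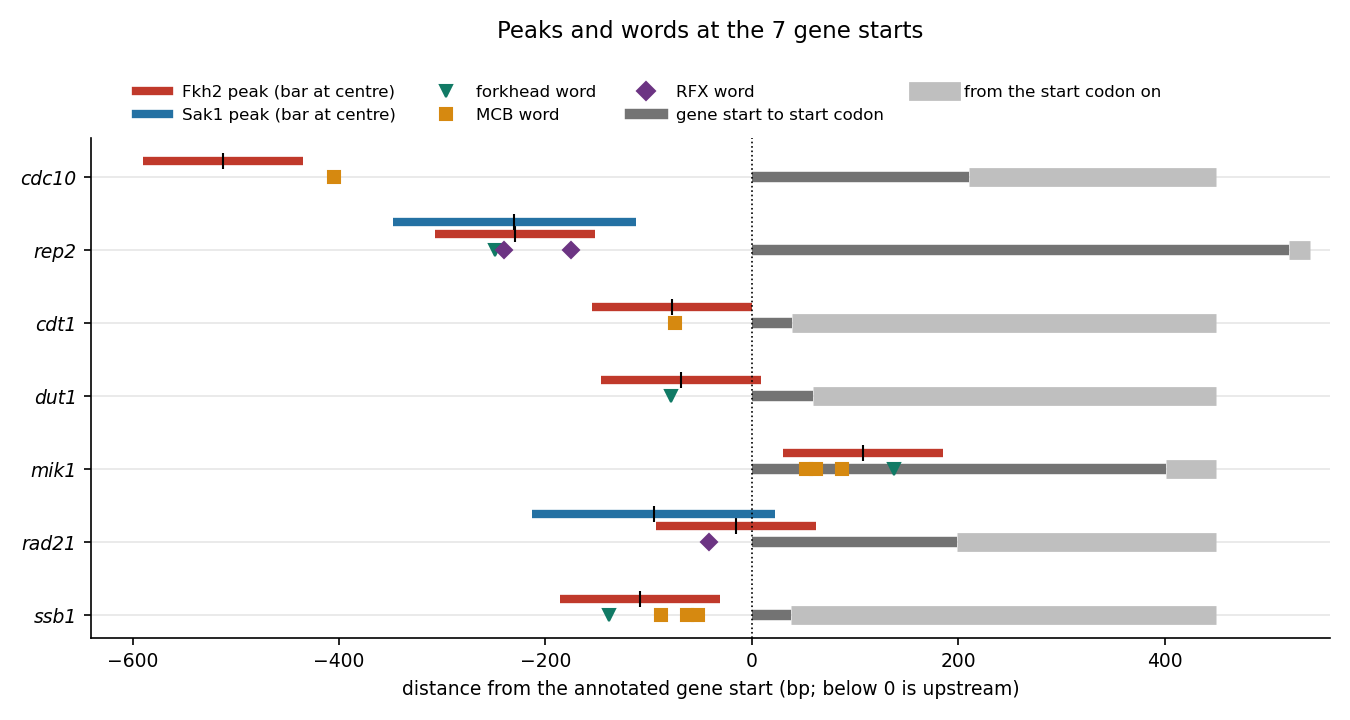
Peaks and words at the 7 gene starts, with distance from the annotated gene start in bp on the horizontal axis and 1 gene per row; coloured bars are peak intervals with their centres marked, and symbols are words within 150 bp of a peak centre. Fkh2 centres lie between 512 bp upstream (cdc10) and 108 bp downstream (mik1), and Sak1 intervals stand at rep2 and rad21.

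Of the MBF machinery, rep2 had the strongest peaks among these genes in both lists. The Fkh2 peak (chromosome II, 1717397 to 1717551) had 1816.9 tags per 10000000, the normalised tag count, with a 95% counting interval of 1567 to 2095, and ranked 25 of 152. Its centre lay 229 bp upstream of the gene start and 750 bp upstream of the start codon, behind an annotated leader of 521 bp, and between annotated genes. The Sak1 peak (chromosome II, 1717356 to 1717590) had a count of 4024.4 (3595 to 4490) and ranked 3 of 47. The centres of these peaks were 1 bp apart, and the Sak1 interval contained the whole Fkh2 interval.

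Scaled to the depth of the untagged library, the rep2 peaks held 88.3 Fkh2-TAP tags against 1 untagged tag, and 196.2 Sak1-TAP tags against 1 untagged tag. The caller's fold was 88.3 for Fkh2, with a 95% counting interval of 15.7 to 3513, and 196 for Sak1, with an interval of 34.9 to 7765. The mean of the untagged library was 5.99 tags per Fkh2 peak width and 9.07 per Sak1 peak width. These means were computed from the untagged total implied by the caller's scaling and the caller's genome size. With the control raised to that mean, the rep2 folds were 14.7 for Fkh2 and 21.6 for Sak1, still above the 4 fold that the caller required.

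At cdc10 (Fkh2 peak at chromosome II, 2764235 to 2764389) the tag count was the lowest of these peaks, 642.4 (interval 498 to 816), at rank 103 of 152. On the scale of the untagged library, 31.2 Fkh2-TAP tags stood against 6 untagged tags, and the fold was 5.2, with a counting interval of 2.27 to 14.7 that extends below the required 4. The centre lay 512 bp upstream of the cdc10 start, farther than at any other of the 7 genes, and 3 bp past the last coding base of the neighbouring gene mmp2, in its annotated 3′ UTR and over lncRNA genes. No other protein-coding gene start was in reach. The centre lay 871 bp downstream of the mmp2 start, outside the reach of that gene.

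Among the MBF targets the strongest Fkh2 peak was that of mik1 and ssb1 (chromosome II, 221329 to 221483), with a count of 1198.5 (interval 998 to 1428), rank 55 of 152 and 5 untagged tags (11.7 fold, interval 4.87 to 36.6). Its centre lay 108 bp inside the annotated mik1 leader, which is 401 bp long, and 108 bp upstream of the ssb1 start, whose leader is 38 bp long. The data do not assign the peak to either gene. Relative to start codons it was 293 bp upstream of mik1 and 146 bp upstream of ssb1.

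The cdt1 peak (chromosome II, 477238 to 477392) had a count of 944.4 (interval 767 to 1150), rank 70, 4 untagged tags and 11.5 fold (4.35 to 43.0). Its centre was 77 bp upstream of the cdt1 start, between genes. A second gene start was in reach at 587 bp, that of wpl1, which encodes a protein of the WAPL family known for release of cohesin from chromosomes. This was the only protein-coding gene outside the 7 that their peaks reached.

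The dut1 peak (chromosome I, 2679100 to 2679254) had a count of 709.5 (interval 557 to 891), rank 94, 5.5 untagged tags and 6.27 fold (2.67 to 18.7). The centre was 69 bp upstream of the dut1 start and lay within the annotated 3′ UTR of pct1, a gene on the other strand whose annotated extent contains the whole of dut1.

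At rad21 the Fkh2 peak (chromosome III, 1342801 to 1342955) had a count of 901.3 (interval 728 to 1103), rank 76, 5 untagged tags and 8.76 fold (3.63 to 27.7). Its centre lay 15 bp upstream of the gene start, nearest of all, over the lncRNA gene SPNCRNA.1187. The Sak1 peak there (chromosome III, 1342681 to 1342915) had a count of 666.5 (interval 499 to 872) and ranked 45 of 47. It stood 9.25 fold over 3.5 untagged tags (3.23 to 39.7) and 4.05 fold over the surrounding 10000 bp, where the caller required 4. With the control raised to its computed mean of 9.07 tags the fold over the control would be 3.57, under the required 4. That mean is above the median of 4 untagged tags at the peaks of the Sak1 list.

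The centres at rad21 were 80 bp apart, and the intervals shared 115 bp, or 74.2% of the Fkh2 peak. Among the 36 Fkh2 peaks that overlap a Sak1 peak the median distance of centres was 28 bp, and 2 had a distance above that of rad21. The rep2 distance of 1 bp was at the other end, with 2 of the 36 at or below it. The nearest protein-coding start outside the reach was that of SPCC338.18, 1006 bp from the Sak1 centre and 1086 bp from the Fkh2 centre, just past the 1000 bp threshold.

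**Figure D2:**
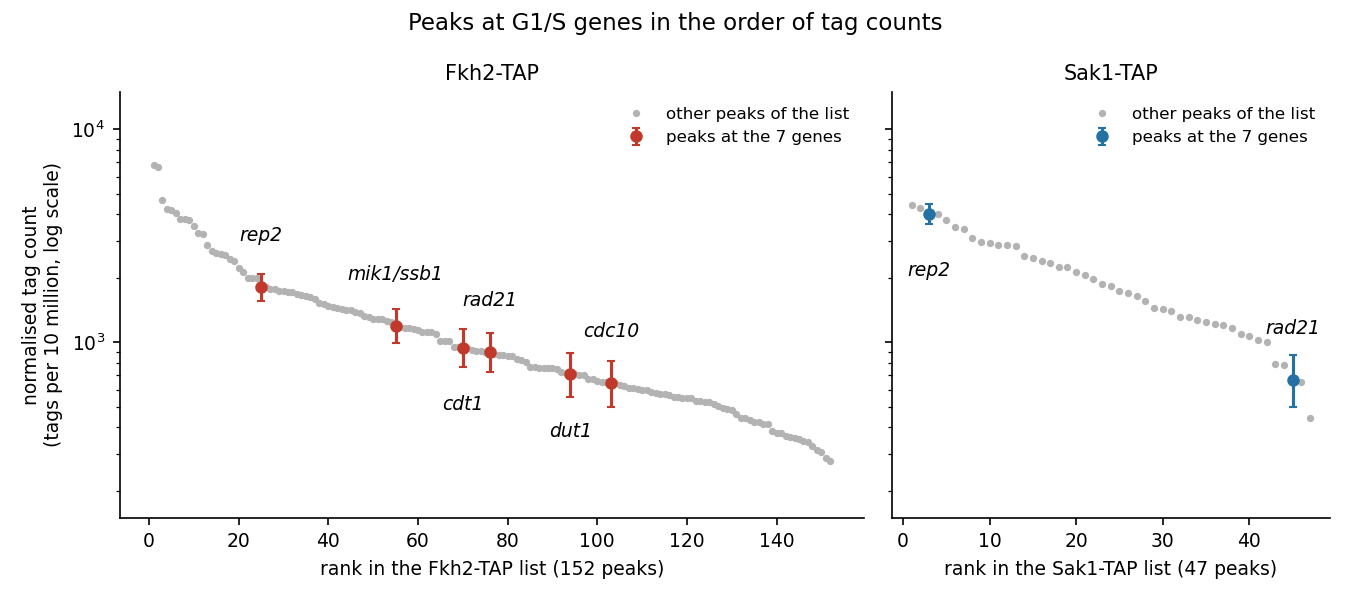
Normalised tag count (tags per 10000000, log scale) of every peak against its rank, for the Fkh2-TAP and Sak1-TAP lists; coloured points are the peaks at the 7 genes with 95% counting intervals. The 6 Fkh2 peaks run from rank 25 (rep2) to rank 103 (cdc10) of 152, and the 2 Sak1 peaks stand at ranks 3 (rep2) and 45 (rad21) of 47.

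The Fkh2 order was thus rep2, mik1 with ssb1, cdt1, rad21, dut1 and cdc10. Between neighbours in that order, rep2 and mik1 differed by more than counting error (ratio 1.52, 95% interval 1.20 to 1.92). The steps from mik1 to cdt1 (1.27, 0.967 to 1.67), cdt1 to rad21 (1.05, 0.782 to 1.41), rad21 to dut1 (1.27, 0.927 to 1.75) and dut1 to cdc10 (1.10, 0.783 to 1.56) did not. From the highest to the lowest, rep2 to cdc10, the ratio was 2.83 (2.13 to 3.80). These intervals cover counting error within 1 pooled library and no difference between experiments.

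In the list as a whole the median tag count was 894.1, with quartiles of 575.3 and 1521. The 6 peaks had a median of 923, with 4 above the list median and 1, that of rep2, above the upper quartile. Their folds over the control ran from 5.2 to 88.3, with a median of 10.1 against 10.6 in the list. Their untagged tags were 1 to 6, with a median of 5, against a list median of 4. The share of tags on the expected side of the centre, which the caller calls the focus ratio, was 0.801 to 0.98, against a list median of 0.809. These peaks were chosen for being in the list, so the values are a description.

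**Figure D3:**
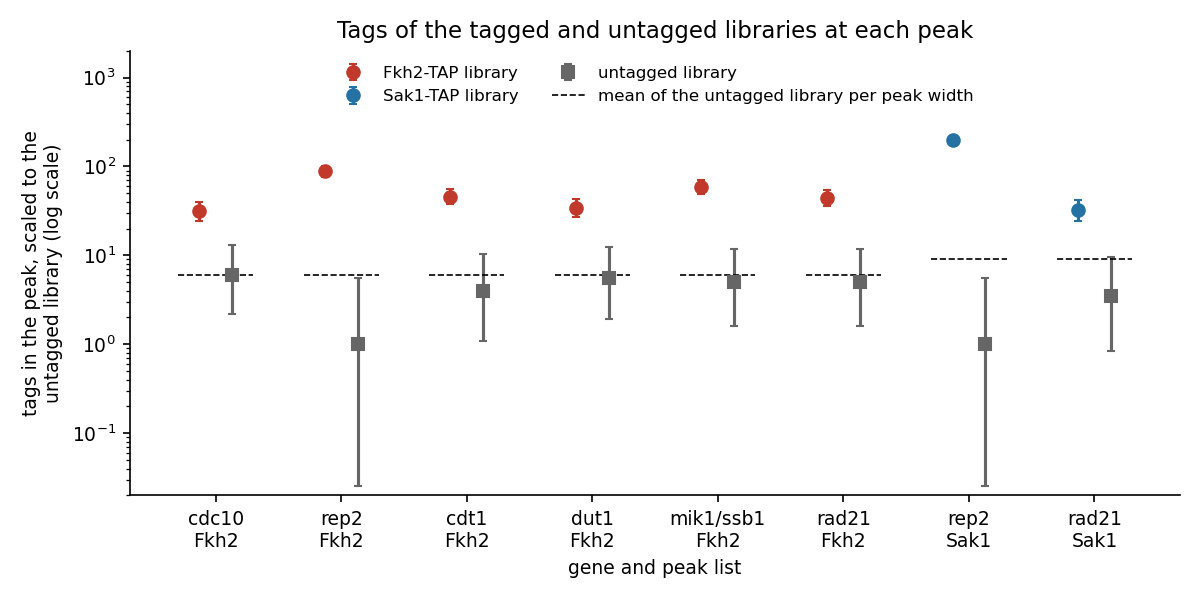
Tags in each peak for the tagged library (circles, scaled by the caller to the untagged library) and the untagged library (squares), on a log scale, with 95% counting intervals; dashed lines give the untagged mean per peak width. The tagged libraries lie between 31.2 (cdc10, Fkh2) and 196.2 (rep2, Sak1), and the untagged library between 1 and 6.

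Sak1 was not called at cdc10, cdt1, dut1, mik1 or ssb1, and the lists give no level below the call. The caller's tag threshold in the Sak1 library was 35 tags, or 440.2 on the normalised scale, which is also the lowest count in the Sak1 list. With the untagged tags seen in the Fkh2 intervals, the 4 fold rule would have asked for at least 493 at cdc10 and 452 at dut1. Fkh2 intervals are 155 bp wide and Sak1 intervals 235 bp. A Sak1 interval could thus hold more untagged tags, and the level needed could be higher. The Sak1 peaks that were called stood at 4024.4 (rep2) and 666.5 (rad21). For Sep1 the threshold was 34 tags, or 375 on the normalised scale, in a list of 11 peaks from a culture under bortezomib. The lowest count in the Sep1 list was 364, so 375 is a nominal level and not a strict floor. Sep1 peaks reached 0.176% of all genes, so the 0 of 7 is near that share and no absence is read from it. The other strains had no drug on their labels, so factor and drug cannot be told apart in the Sep1 list.

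The forkhead word lay within 150 bp of the centre at 3 of 6 peaks, rep2, dut1 and mik1 with ssb1, against 112 of 152 Fkh2 peaks (73.7%) and 16.5% of 301 bp windows centred 100 bp upstream of all 5113 gene starts. It lay 20 bp from the centre at rep2, 9 bp at dut1 and 30 bp at mik1. The cdc10, cdt1 and rad21 windows held none, and with the shorter core TAAACA rad21 joined, while cdc10 and cdt1 still had 0.

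The MCB word lay at 3 of 6 peaks, cdc10, cdt1 and mik1 with ssb1, against 17 of 152 Fkh2 peaks (11.2%) and 3.27% of windows at all gene starts. At cdt1 it was centred 2.5 bp from the peak centre. At cdc10 it was 107.5 bp away, outside the peak interval on the side of the gene, and 404.5 bp upstream of the cdc10 start. The mik1 and ssb1 window held 3 MCB words, 10 and 25 bp apart from start to start, and the forkhead word followed 50 bp after the last. Of the 17 Fkh2 peaks with an MCB word, this was the only one with 3. The 17 include the 3 peaks at these genes. Most of the genes were MBF targets, and MBF binds MCB elements, so no result is read from a share above that of the list.

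The RFX words lay at 2 of 6 Fkh2 peaks, rep2 and rad21, the same that had a Sak1 peak, and at none of the 4 others. In the Fkh2 list they lay at 14 of the 36 peaks that overlap a Sak1 peak and at 8 of the 116 that do not. The share was 5.07% of windows at all gene starts. At rep2 the forkhead word and GTTGCCA started 9 bp apart, separated by 2 bases, and GTTACCA followed 65 bp on. GTTGCCA was centred 11 bp from the Fkh2 centre and 10 bp from the Sak1 centre. At rad21 the single RFX word was centred 26 bp from the Fkh2 centre and 54 bp from the Sak1 centre. This peak was 1 of 3 shared peaks with an RFX word and no forkhead word. A word match is a description of sequence and does not show which protein was bound there.

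Lists of G1/S control genes held 53 genes beside these 7. Of the 53, 0 had a peak of any of the 3 factors in reach. Over all genes the shares in reach were 2.84% (Fkh2), 1.06% (Sak1) and 0.176% (Sep1). With shares this low, and with genes having a Fkh2 peak already taken into the 7, no absence is read from the 0. In the list of 7 MBF factors and regulators, the 2 reached by Fkh2 were cdc10 and rep2, and res1, res2, rep1, nrm1 and yox1 had no peak. In the list of 18 MBF targets, the 5 reached by Fkh2 were the 5 described above. The choice of genes fixed these counts, so no share of a list is read from them. The 13 targets without a peak included cdc18, which encodes a licensing factor that acts with Cdt1, the cyclin gene cig2, cdc22 for the large subunit of ribonucleotide reductase, and psm3 for another subunit of cohesin. No gene was reached by any factor among 8 genes of Cdc2, its cyclins and their regulators, or among 18 of origin licensing and firing. The 8 were cdc2, cdc13, cig1, puc1, rum1, ste9, pop1 and pop2. The lists were written with earlier results of these data known.

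None of 9 listed partner subunits and paralogues of ssb1, rad21 and mik1 was reached either, where Fkh2 peaks reached 2.84% of all genes. With a share this low, no absence is read from this. For the RPA gene ssb1 these were the other subunit genes ssb2 and ssb3. For rad21 they were psm1, psc3, pds5, the loader genes mis4 and ssl3, and rec8, its meiotic counterpart. For mik1 it was the kinase gene wee1. The list left out the WAPL family gene wpl1, which is in reach of the cdt1 peak, so the count of genes reached depends on how the list was drawn up. The nearest Sak1 peak to ssl3 was centred 1664 bp upstream, outside the reach. For Fkh2, the list genes nearest to a peak without being in reach were pop2 (2066 bp upstream), sld3 (4032 bp) and cdc13 (6791 bp), so no list gene lay just outside the Fkh2 threshold. Just inside it the farthest was cdc10, at 512 bp.

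Over the whole reach of a gene start, both words occurred at MBF targets with a Fkh2 peak and at those without. The forkhead word lay in the reach of 3 of 5 MBF targets with a Fkh2 peak and of 9 of 13 without, against 41.4% of all genes. The MCB word lay in the reach of 3 of 5 with and 7 of 13 without, against 9.15% of all genes. Each 3 of 5 counts mik1 and ssb1 apart, though they share 1 peak, its forkhead word and its 3 MCB words. Both words together lay at 2 of 5 with, mik1 and ssb1, which share them, and at 4 of 13 without, against 4.11% of all genes. For example, cdc22 had 2 forkhead and 3 MCB words in reach and no peak, and rep1, the paralogue of rep2, had 2 forkhead words and 1 RFX word and no peak. No difference is read from counts of this size.

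**Figure D4:**
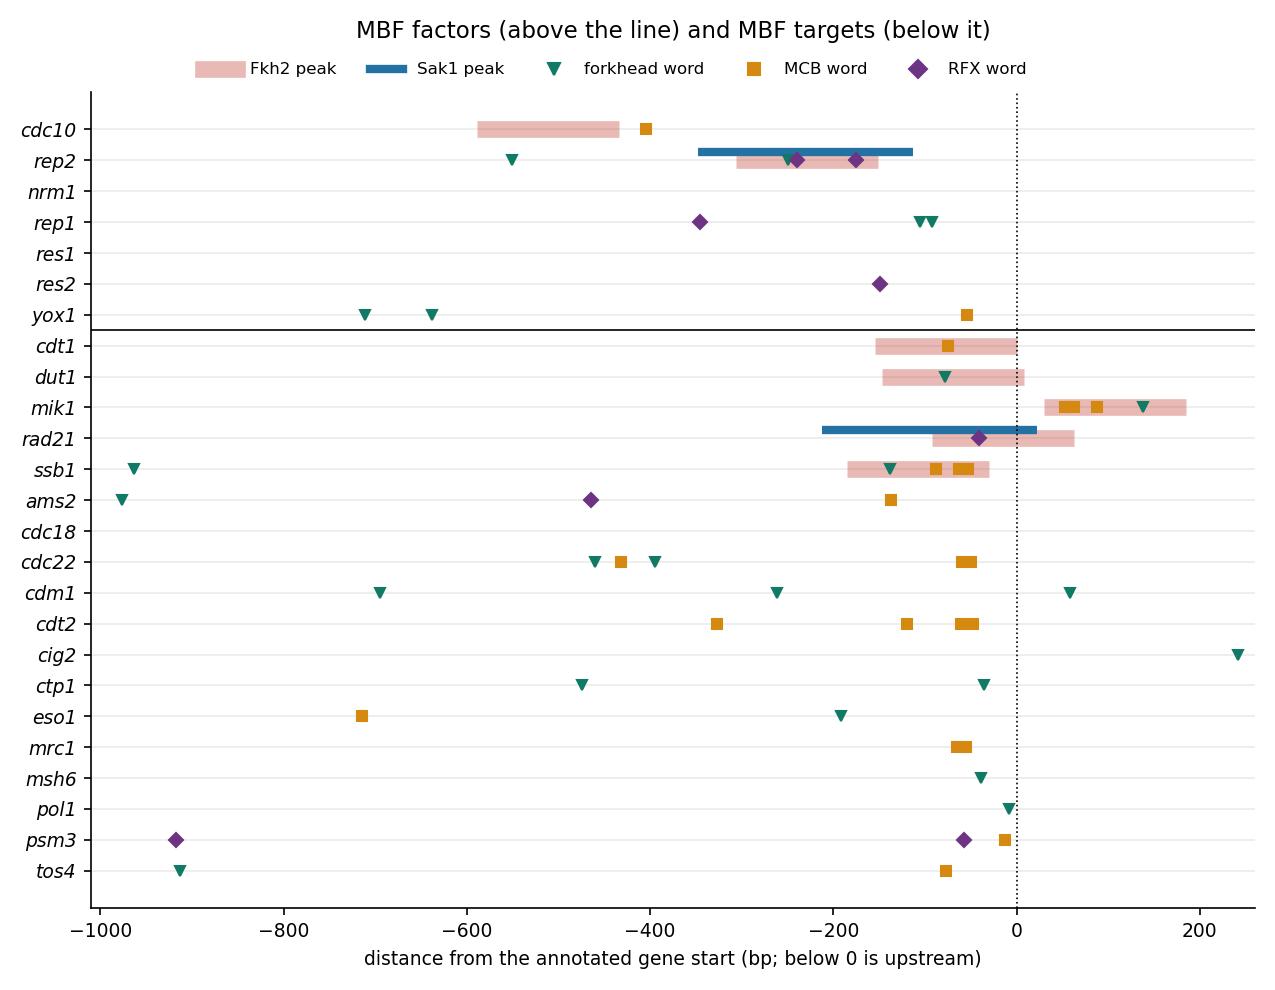
Positions of forkhead, MCB and RFX words from 1000 bp upstream to 250 bp downstream of the gene starts of 7 MBF factor genes (above the line) and 18 MBF targets (below it), in bp from the gene start; shaded bars are Fkh2 peaks and solid bars Sak1 peaks. In the rows of genes without a peak, such as cdc22 and rep1, forkhead words occur as well, and the mik1 and ssb1 rows show 1 shared peak from both sides.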

How the data were processed

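ChIP-seq libraries of 3 TAP-tagged strains and 1 untagged strain were analysed, each a pool of 2 experiments per the labels. The tools named in the submitters' processing notes are HOMER, SAMtools 0.1.18 and Bowtie2 2.1.0. The genome build is not given in the sources used here. HOMER findPeaks, per the file headers, called peaks on each tagged library against the untagged one, with a false discovery rate of 0.001, 4 fold over the control and over the surrounding 10000 bp, and a Poisson limit of 1e-04. The deposited normalised tag count is a signal scaled to 10000000 tags. The control tags are a deposited signal per peak, the folds a deposited ratio, the findPeaks score a deposited score and the focus ratio a deposited fraction. The deposited p-value columns were not used. Library totals per the file headers were 1042989.5 tags (Fkh2-TAP), 795148 (Sak1-TAP) and 906632 (Sep1-TAP), and the caller's scaling implies about 487020 untagged tags.

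Coordinates were read against ASM294v3 (RefSeq). The forkhead word lay within 150 bp of 112 of 152 Fkh2 centres, and of at most 19 after shifts of 1000 to 5000 bp. Gene lists and members were chosen with earlier results of these data known, and all 60 list genes matched a RefSeq gene. Named genes are the 7 genes, other genes in reach of their peaks, list genes with a peak and the 3 list genes with the nearest Fkh2 peak out of reach. Others are named as examples or as full membership of a list. Tags were recovered as tag count times library total over 10000000. Intervals are exact Poisson, or Clopper-Pearson for ratios, at 95%, and cover counting error only; reads are not independent molecules. No test was made, since each factor has 1 list. Assignment, word search and intervals were tested on simulated data with Python 3.11.15, scipy 1.17.1 and numpy 2.4.6.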

Additional observations from a re-analysis of the deposited data

How the results depend on the processing

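Of 48 recomputed counts and medians whose reported value is above 0, 42 stayed within 1.5 times that value. The other 72 recompute counts that are 0 as reported and were 0 again, which the narrower settings could not have changed. Some of the 48 were also bound to stay, since a wider reach cannot lose a gene and Fkh2 already reached all 7. A fall from 7 genes to 5 also counts as within 1.5 times. With the reach cut to 500 bp upstream and 0 bp downstream, in the upper 50% of each list, and at a fold of at least 8, Fkh2 reached 1 of the MBF factor genes, rep2, as cdc10 fell outside. In the upper 50% of peaks Sak1 reached 1 of the 7 genes, rep2, and 0 MBF targets, since rad21 ranks 45 of 47. With the MCB core ACGCG, an alternative added after the sequences were seen, 5 of 6 Fkh2 peaks held the word, against 35 of 152 in the list. No result is read from that share, since most of the genes were MBF targets. Fkh2 reached 5 of the 7 genes in the shorter reach (without cdc10 and mik1) and 5 in the upper 50% and at a fold of 8 (without cdc10 and dut1). Within 75 bp the MCB word lay at 2 of 6 peaks. Ranked by fold over the control, rep2 moved to rank 9 and cdc10 to rank 135 in the Fkh2 list. The folds with the control raised to its mean were also added after the data were seen; beside the rep2 and rad21 values given above, the Fkh2 folds of the other peaks moved within their counting intervals. No paired analysis was possible because each group has 1 pooled sample. Depth limits the control, since 1 to 6 untagged tags stand behind each fold.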

Other observations

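Among the 40 Fkh2 peaks with no forkhead word, 5 held an MCB word, close to the share in the whole list, 17 of 152 (11.2%). Of these 5, 2 were the peaks at cdc10 and cdt1, and the choice of G1/S genes bears on that count. At cdc10 the MCB word lay outside the peak interval. Of the 17 Fkh2 peaks with an MCB word, 12 also held the forkhead word and 4 overlapped a Sak1 peak. Their median normalised tag count was 1121.8, with a range of 350 to 4213.8, against 872.5 for the 135 without an MCB word. The median folds over the control were 11.74 and 10.42, and the difference was not tested. Beside the mik1 and ssb1 peak with its 3 MCB words, 2 Fkh2 peaks held 2 of them, at eis1 and between cys2 and rpl2501, named here after their values were seen.

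The MCB core ACGCG, looked for after the sequences had been read, occurred 9 times in the mik1 and ssb1 window, 4 times at cdt1, 3 times each at dut1 and cdc10 and 2 times at rad21, counting both strands. The full word ACGCGT holds the core on both strands, so each full word was counted 2 times. At mik1 and ssb1, cdt1 and cdc10, which hold full words, the counts are therefore not numbers of separate sites. The rep2 window held 0. It was present in 35 of 152 Fkh2 windows (23.0%) and in 11.5% of windows at all gene starts. No result is read from the comparison, since most of the genes were MBF targets. Of the 9 partner and paralogue genes without a peak, 6 (66.7%) held the full MCB word in reach, against 9.15% of all genes. Nothing is read from that share, since the list was drawn up by choice with earlier results of these data known. There were 4 words at psc3 and 3 at pds5. The 4 at psc3 are also in the reach of the divergent MBF target cdt2, and 3 of them lie nearer to the cdt2 start. The single words at ssb3, psm1 and mis4 are in the reach of other genes too, though none lies nearer to the start of those genes.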
